A study of Mus musculus with 18 samples.

Results

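The genes described here are 10 mouse genes of flow sensing in the kidney tubule: Pkd1, Pkd2, Pkhd1, Piezo1, Trpv4, Trpm7, P2rx4, P2ry2, Panx1 and Gja1. They were chosen by name, with earlier results of these data known. All 10 were found among the 49845 gene names of the deposited tables, and all 10 were among the 16718 genes that reached 1 TPM (a gene's length-corrected share of all transcripts in a library) in at least 3 libraries and were tested. The libraries are total RNA of IMCD3 cells, an epithelial line of mouse inner medullary collecting duct from a strain that carries the SV40 early region (Tg(SV40E)bri/7). Wild-type (WT) cells, an Ift140 knockout and a Dync2h1 knockout were each kept static or put under fluid shear of about 0.7 dyne/cm2 for 3 h in microslide chambers, all at passage 10 to 15. That makes 6 groups of 3 libraries, 18 in all, and the question is how the genes respond to flow with and without these ciliary transport proteins. Separate cultures for the replicates are not stated in the labels, nor is the number of clones behind each knockout. The p-values therefore measure only the spread between these libraries, which may be technical, and a difference between lines cannot be told apart from a difference between clones.

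Tubule cells carry a primary cilium, a single sensory projection that is built by intraflagellar transport. Ift140 encodes a subunit of the transport complex that carries cargo back from the tip, and Dync2h1 encodes the heavy chain of the dynein motor that pulls it. Polycystin-1 (Pkd1), a large receptor-like protein, and polycystin-2 (Pkd2), a cation channel, form a complex in the cilium, and mutations in either gene cause dominant polycystic kidney disease. Fibrocystin, the product of Pkhd1, is the protein lost in the recessive disease. Piezo1 is a channel opened directly by membrane tension, Trpv4 is a calcium channel opened by swelling and shear, and Trpm7 is a magnesium and calcium channel fused to a kinase. Flow also makes tubule cells release ATP, for which pannexin-1 (Panx1) and connexin hemichannels such as connexin-43 (Gja1) are known routes. The released ATP acts on P2X channels such as P2rx4 and on G protein-coupled receptors such as P2ry2.

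Promoter sequences are shown for 3 of the genes on which the results turn: Pkhd1, which was lower in both knockouts, Piezo1, which rose under flow, and Panx1, which was listed at 0 in every Dync2h1 knockout library. Each is the stretch of 250 bases before the RefSeq transcript start on GRCm38.p6, all on the minus strand and written 5′ to 3′, at chr1:20618058-20618307 for Pkhd1, chr8:122551330-122551579 for Piezo1 and chr9:15045479-15045728 for Panx1. Capitals mark matches to the motifs searched.
Pkhd1: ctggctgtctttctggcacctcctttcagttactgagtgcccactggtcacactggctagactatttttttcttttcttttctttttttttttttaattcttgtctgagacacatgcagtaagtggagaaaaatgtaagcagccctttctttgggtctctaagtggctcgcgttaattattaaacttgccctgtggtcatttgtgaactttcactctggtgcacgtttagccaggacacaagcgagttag
Piezo1: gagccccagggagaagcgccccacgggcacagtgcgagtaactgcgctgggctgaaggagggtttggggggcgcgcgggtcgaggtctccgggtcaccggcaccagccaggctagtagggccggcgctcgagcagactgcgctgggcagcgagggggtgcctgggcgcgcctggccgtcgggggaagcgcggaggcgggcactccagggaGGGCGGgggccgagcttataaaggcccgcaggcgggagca
Panx1: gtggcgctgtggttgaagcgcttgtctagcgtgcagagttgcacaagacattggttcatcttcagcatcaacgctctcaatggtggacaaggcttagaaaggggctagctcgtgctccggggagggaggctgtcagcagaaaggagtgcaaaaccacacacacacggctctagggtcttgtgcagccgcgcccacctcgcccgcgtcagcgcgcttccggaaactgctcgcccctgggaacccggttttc
The motifs were searched on both strands: TGANTCA (AP-1), GGAATG (TEAD), GGGCGG (SP and KLF) and TGACNNNGC (the antioxidant response element). In the Piezo1 promoter, with a GC content of 74% against a median of 52% over all promoters, GGGCGG starts 40 bases before the start, a motif present in 32.9% of 27025 promoters of the same length. None of the 4 motifs occurs in the Pkhd1 window (GC content 42%) or the Panx1 window (59.6%). AP-1 letters were present in 6.87%, TEAD letters in 12.6% and antioxidant response letters in 10.1% of promoters. A match or its absence describes these letters only.

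As a check of the labels, the mean of Ift140 was 18.2 ± 1.55 TPM (SD, n = 3) for wild type and 6.72 ± 0.639 for the Ift140 knockout, both static. Under flow Ift140 was 16.5, 15.1 and 18.5 TPM in wild-type libraries and 7.65, 8.53 and 15.4 in those labelled Ift140 knockout, so that replicate 3 of the latter lay within the wild-type range. The mean of Dync2h1 was 39.8 ± 5.86 TPM for wild type and 13.3 ± 3.29 for the Dync2h1 knockout, both static. Levels are TPM after scaling the libraries to each other. TPM is divided by transcript length, so it can be compared between genes, but it keeps no sequencing depth, and the depth of each library is unknown. Epithelial markers of the collecting duct list were high (Krt8 between 1134 and 2315 TPM), while the defining principal cell gene Aqp2 reached at most 0.0746 TPM in any library. The summed level of that list of 14 genes was higher in flow libraries of each line: static against flow, the ranges were 1802 to 1875 against 2913 to 2961 TPM in wild type, 2572 to 2834 against 3088 to 3725 in the Ift140 knockout and 2274 to 2342 against 3288 to 3514 in the Dync2h1 knockout. That sum was nearly all Krt8 and Krt18 (626 to 1413 TPM), so its rise describes these keratins. Cdh1 lay between 26.9 and 93.7 TPM, and every other member of the list was at most 3.42 TPM in any library. Summed markers of other cells were low in every library, at most 1.098 TPM for endothelium, 1.42 for intercalated cells, 1.84 for leukocytes, 2.17 for thick limb and distal tubule and 4.48 for fibroblasts. Among proximal tubule markers, Slc34a1, Slc22a6 and Kap were at 0, but the endocytic receptor genes Cubn and Lrp2 brought the sum of that list to between 434 and 438 TPM in static wild-type, 83.2 to 91.1 in static Ift140 knockout and 10.5 to 13.3 in static Dync2h1 knockout libraries. The part of these marker differences in the results below was not tested. Replicate 3 of the libraries labelled Ift140 knockout flow, whose Ift140 level is given above, also stood farthest from its group, with an SD of 0.569 (log2) from the mean of the other libraries of its group against 0.334 to 0.491 elsewhere, and the differences of the 10 genes that involve its group are given with and without it. Values of other genes include it.

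Fibrocystin mRNA was the most abundant of the 10, with a mean of 227 TPM over all libraries (96th percentile of the tested genes), followed by Piezo1 (109.8), Trpm7 (104), Pkd2 (94.4), Trpv4 (43.6), Pkd1 (39.2) and P2rx4 (26.5). Panx1 (4.40), P2ry2 (2.93) and Gja1 (2.12) were low. Under flow, 1 of the 10 passed in wild-type cells, 2 in the Ift140 knockout and 3 in the Dync2h1 knockout. A gene passed when its adjusted p from limma was under 0.05, which 20.5%, 17.5% and 19.0% of all tested genes did in those comparisons, so these counts are near the background. Between the lines the counts were higher: in static culture 4 of 10 differed between the Ift140 knockout and wild type (background 18.1%) and 6 of 10 between the Dync2h1 knockout and wild type (background 27.6%). In the latter, 4 of 10 were lower, against 14.1% of tested genes that passed as lower, and in the former 3 of 10 were lower, against 9.08%. The median log2 difference of the 10 genes was -0.25 in the Dync2h1 comparison and -0.15 in the Ift140 comparison, beside -0.01 and -0.00 over all tested genes. With deposited TPM not scaled further, none of the 4 Ift140 calls (Pkd2, Pkhd1, Piezo1, Panx1) passed, with adjusted p-values of 0.063 to 0.0781. Both comparisons share the static wild-type libraries. The 10 genes were chosen with earlier results of these data known, so counts above the background are not independent support for a difference of these genes as a set.

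**Figure D1:**
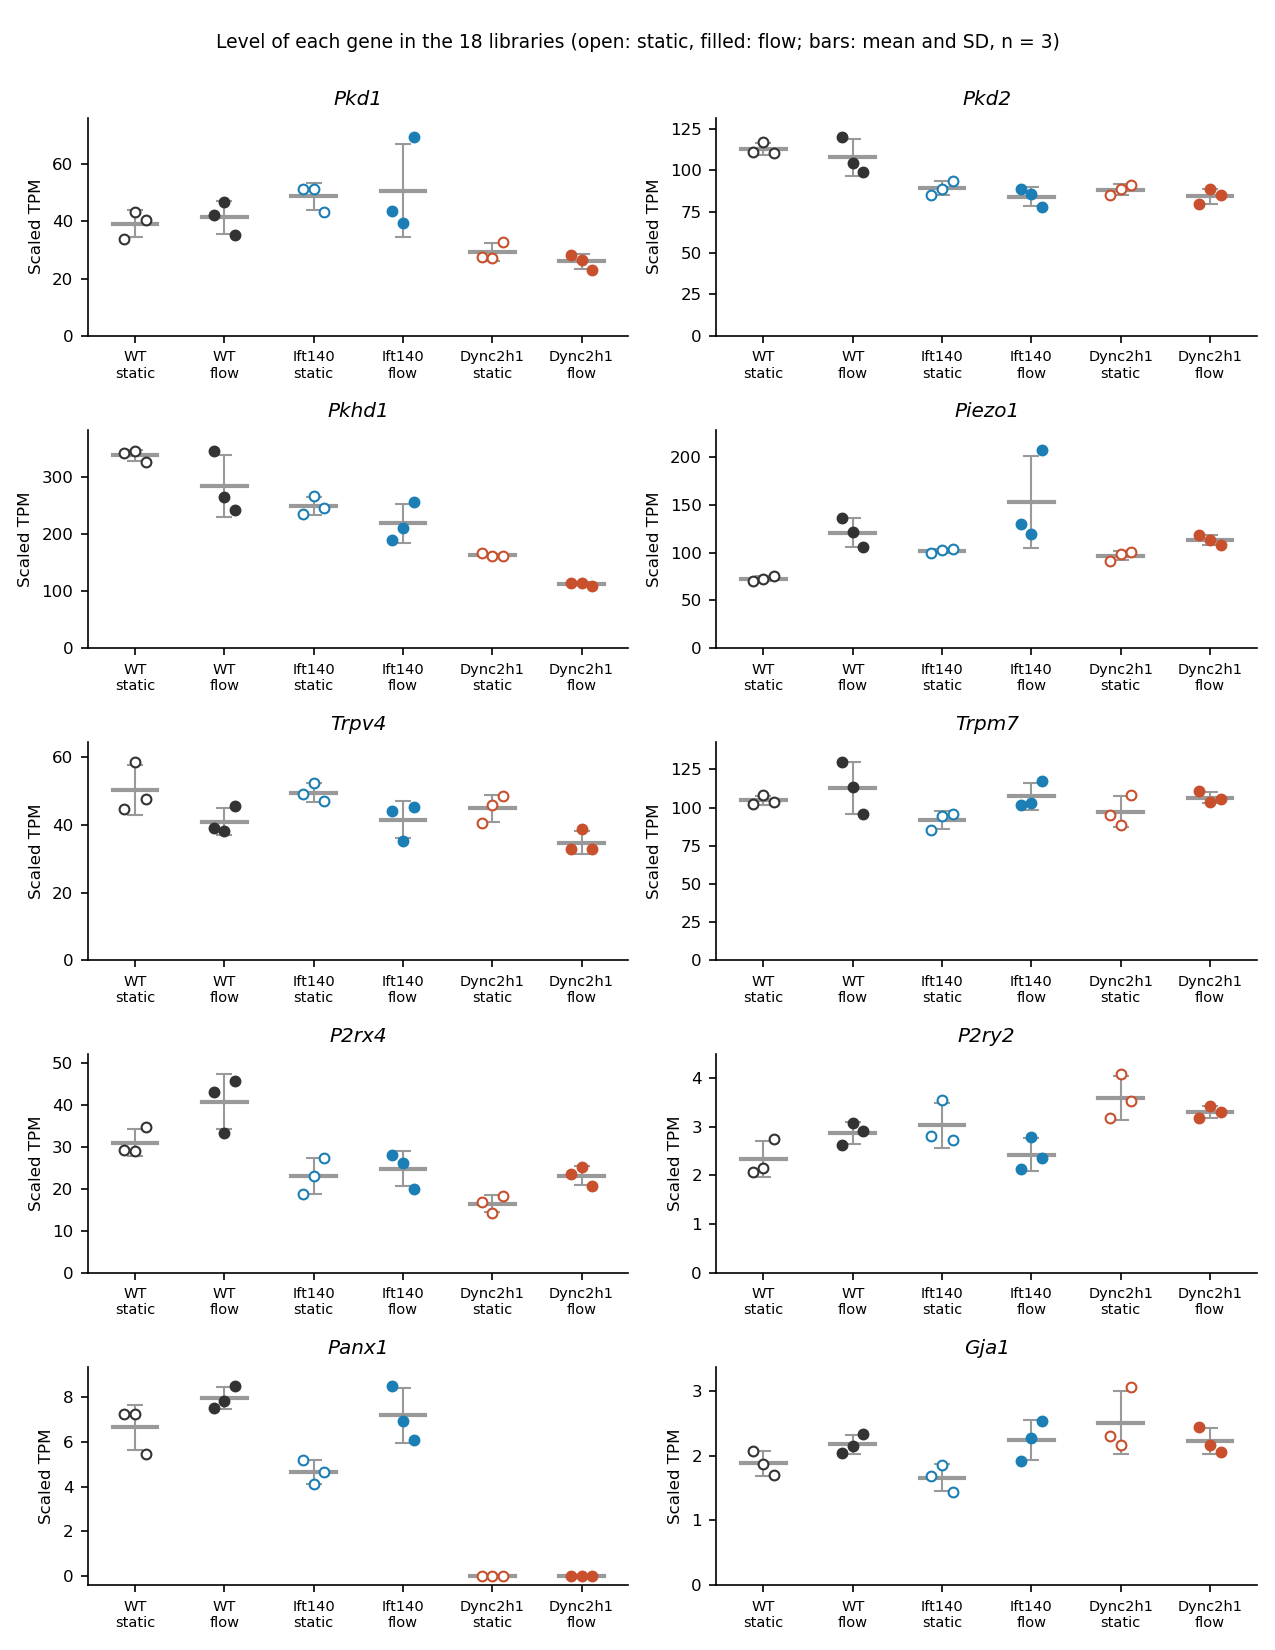
Scaled TPM (vertical axes, starting at 0 with a small margin for Panx1) of the 10 genes in the 18 libraries, by line and culture; points are libraries, open for static and filled for flow, and bars give the mean and SD of 3 libraries. Pkhd1 steps down from wild type to the Dync2h1 knockout, Piezo1 is lowest in static wild-type cells, and Panx1 is at 0 in the 6 Dync2h1 knockout libraries.

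Of the genes of cystic disease, Pkhd1 (GRCm38, chromosome 1, 20057779 to 20618064, minus strand) stepped down from wild type through the Ift140 to the Dync2h1 knockout. Wild-type levels were 341, 345 and 326 TPM static and 344, 264 and 242 under flow. For the Ift140 knockout it was 236, 267 and 246 static and 189, 210.4 and 256 under flow. In the Dync2h1 knockout it was 166, 161 and 162 static and 114, 114 and 109 under flow. Every Dync2h1 knockout library lay below every library of the other lines, and the flow libraries of that knockout lay below its static ones. Against wild type, Pkhd1 was lower by a log2 difference of -1.04 (SE 0.11, adjusted p = 6.48e-06) in the static and -1.31 (SE 0.11, adjusted p = 6.19e-07) in the flow libraries of the Dync2h1 knockout. Log2 differences here are of scaled TPM + 1, which understates changes of low genes. For the Ift140 knockout the static difference was -0.44 (SE 0.11, adjusted p = 0.015), and its adjusted p was 0.051 without WT static replicate 2 and 0.0562 without Ift140 knockout static replicate 1. Under flow it was -0.37 (adjusted p = 0.0413), with groups that overlap, and -0.49 (adjusted p = 0.00783) without replicate 3 of the libraries labelled Ift140 knockout flow. Leaving out Ift140 knockout flow replicate 1 or 2 gave an adjusted p of 0.149 or 0.0796, and leaving out WT flow replicate 1 or 2 gave 0.183 or 0.0572. This call passed in 5 of 15 alternatives and was also lost with deposited TPM (0.124), quantile normalisation (0.0634), no filter (0.0842), the replicate block (0.0619), no trend (0.0584) and only the compared groups in the fit (0.28). The knockouts also differed from each other, by -0.61 (adjusted p = 0.00119) static and -0.94 (adjusted p = 1.95e-05) under flow, Dync2h1 minus Ift140, the latter -0.82 (adjusted p = 6.96e-05) without replicate 3 of the libraries labelled Ift140 knockout flow.

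Flow lowered Pkhd1 in the Dync2h1 knockout by -0.53 (SE 0.11, adjusted p = 0.00414), a call that held under all 16 alternatives run. The difference was -0.27 (95% interval -0.51 to -0.02, adjusted p = 0.119) in wild type and -0.20 (-0.44 to 0.04, adjusted p = 0.271) in the Ift140 knockout, -0.32 (adjusted p = 0.0618) without replicate 3 of the libraries labelled Ift140 knockout flow. In wild type, the library labelled WT flow replicate 1 stood at the static level, and without it the adjusted p was 0.00991. The response of the Dync2h1 knockout minus that of wild type was -0.26 (-0.61 to 0.08, adjusted p = 0.683), so a difference between the responses was not shown.

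Pkd2 (chromosome 5, 104459450 to 104505819, plus strand) was lower in both knockouts and did not pass under flow in any line. Wild-type libraries had 111, 117 and 110.5 TPM static and 119.8, 105 and 98.6 under flow. For the Ift140 knockout the values were 85.3, 88.7 and 93.5 static and 88.5, 85.7 and 77.6 under flow. The Dync2h1 knockout had 85.0, 88.6 and 91.2 static and 79.4, 88.6 and 84.8 under flow. All 12 knockout libraries lay below all 6 wild-type libraries, and the 4 knockout groups overlapped each other. The log2 difference from wild type was -0.34 (SE 0.08, adjusted p = 0.0061) in static and -0.35 (adjusted p = 0.00534) in flow libraries of the Ift140 knockout. The flow value was -0.30 (adjusted p = 0.0192) without replicate 3 of the libraries labelled Ift140 knockout flow, and its adjusted p was 0.127 when only the compared groups entered the fit. For the Dync2h1 knockout it was -0.35 (adjusted p = 0.00278) in static and -0.35 (adjusted p = 0.00276) in flow libraries. Between the knockouts the difference was -0.01 (95% interval -0.18 to 0.15) static and 0.01 (-0.16 to 0.17) under flow, the latter -0.05 without that library. Flow differences were -0.07 (-0.23 to 0.09) in wild type, -0.09 (-0.25 to 0.08) in the Ift140 knockout (-0.03 without that library) and -0.07 (-0.23 to 0.10) in the Dync2h1 knockout.

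Pkd1 (chromosome 17, 24549834 to 24596508, plus strand) did not follow its partner. The wild-type libraries had 33.9, 43.3 and 40.4 TPM static and 42.3, 46.7 and 35.3 under flow. The Ift140 knockout had 51.4, 51.4 and 43.3 static and 43.4, 39.4 and 69.3 under flow. The Dync2h1 knockout had 27.6, 27.0 and 32.9 static and 28.3, 26.5 and 23.0 under flow, below every library of the other lines. Dync2h1 knockout cells were lower than wild type by -0.65 (SE 0.17, adjusted p = 0.00993) under flow. In static culture the difference of -0.41 had an adjusted p of 0.0925, passing when only the compared groups entered the fit and with 0.0185 without replicate 3 of the libraries labelled Ift140 knockout flow, which enters the shared estimate of spread. Against the Ift140 knockout Pkd1 was lower by -0.72 (adjusted p = 0.0069) static and -0.90 (adjusted p = 0.00102) under flow, the latter -0.66 (adjusted p = 0.00252) without that library. The Ift140 knockout did not differ from wild type beyond the threshold, with 0.31 (95% interval -0.06 to 0.68) static and 0.25 (-0.12 to 0.62) under flow, the latter 0.01 (adjusted p = 0.985) without that library. Flow differences did not pass either, at 0.08 (-0.29 to 0.45) in wild type, 0.02 (-0.35 to 0.39) in the Ift140 and -0.16 (-0.53 to 0.21) in the Dync2h1 knockout. In the Ift140 knockout the value was of the other sign, -0.23 (adjusted p = 0.302), without that library. Pkd1 lies 0.420 Mb from Ift140 on chromosome 17, and it shares 693 exonic bases with Tsc2 on the opposite strand. Whether reads were counted by strand was not stated, and reads of the pair may not be separated. Tsc2, a regulator of growth signalling, differed by -0.45 (adjusted p = 0.0767) static and -0.79 (adjusted p = 0.00286) under flow between the Dync2h1 and Ift140 knockouts.

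Among the channels, Piezo1 (chromosome 8, 122481698 to 122551329, minus strand) was the gene that flow raised in wild-type cells. Static wild-type libraries had 70.4, 72.4 and 75.6 TPM, and flow libraries 136, 121 and 106. Those of the Ift140 knockout were 99.9, 102 and 104 static and 130.4, 120.0 and 208 under flow. In the Dync2h1 knockout they were 91.5, 98.3 and 101 static and 118, 113 and 108 under flow. Flow libraries lay above static ones in all 3 lines, and static wild-type cells were below all other groups. The rise under flow was 0.72 (SE 0.15, adjusted p = 0.00242) in wild type, a call kept under all 16 alternatives, and 0.54 (SE 0.15, adjusted p = 0.0195) in the Ift140 knockout. The Ift140 knockout value was 0.29 (adjusted p = 0.0313) without its flow replicate 3, and its adjusted p was 0.0579 without static replicate 1 and 0.21 when only the compared groups entered the fit. It passed in 11 of 15 alternatives, and was also lost with deposited TPM (0.08) and quantile normalisation (0.0668). In the Dync2h1 knockout the difference was 0.22 (95% interval -0.09 to 0.53, adjusted p = 0.336), and 0.0441 was its adjusted p when only its own groups entered the fit. The Dync2h1 response minus the wild-type response was -0.50 (-0.94 to -0.06, adjusted p = 0.437). Without replicate 3 of the libraries labelled Ift140 knockout flow its adjusted p was 0.0473.

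In static culture Piezo1 was higher than in wild type by 0.48 (adjusted p = 0.0326) in the Ift140 knockout and by 0.41 (adjusted p = 0.0494) in the Dync2h1 knockout. Both calls were near the threshold: leaving out any 1 of the 6 libraries compared gave adjusted p-values of 0.061 to 0.0975 for the Ift140 and of 0.0686 to 0.128 for the Dync2h1 knockout. The Ift140 call passed in 8 of 16 alternatives, being lost also with deposited TPM and with no filter (0.0754), and the Dync2h1 call in 4 of 16, with 0.0536 to 0.131 under the changes of scaling, filter, pseudocount, block and trend that ended it. Without replicate 3 of the libraries labelled Ift140 knockout flow they were 0.000485 and 0.000919. Under flow neither knockout differed from wild type beyond the threshold, at 0.30 (-0.01 to 0.61) and -0.09 (-0.40 to 0.22), the first 0.05 without that replicate and with an adjusted p of 0.0429 without Ift140 knockout flow replicate 2. Between the knockouts under flow the difference was -0.39 (adjusted p = 0.0542), and -0.14 (adjusted p = 0.244) without that replicate 3. Without Ift140 knockout flow replicate 1 or 2 its adjusted p was 0.0352 or 0.00969, and with deposited TPM, quantile normalisation or a filter at 5 TPM it was 0.0372, 0.0489 or 0.0457. Piezo1 shares 2441 exonic bases with Ctu2, a tRNA-modifying enzyme gene on the opposite strand. Ctu2 stood at 31.3 ± 4.25 TPM static and 45.3 ± 1.83 under flow in wild type (SD, n = 3; adjusted p = 0.00167), at 37.6 ± 0.804 and 42.6 ± 4.52 in the Ift140 knockout (adjusted p = 0.29), and at 32.3 ± 0.839 and 48.1 ± 5.31 in the Dync2h1 knockout (adjusted p = 0.00131). Its part in the Piezo1 values was not tested.

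Trpv4 (chromosome 5, 114622152 to 114658421, minus strand) had a lower mean under flow in each line. Static and flow libraries were 44.5, 58.5 and 47.5 against 39.1, 38.1 and 45.5 TPM in wild type. They were 49.0, 52.4 and 46.9 against 44.2, 35.3 and 45.1 in the Ift140 knockout. They were 40.5, 45.7 and 48.4 against 32.7, 38.8 and 32.7 in the Dync2h1 knockout. The groups overlapped in wild type and were separate in both knockouts. Only the Dync2h1 knockout passed, with -0.36 (SE 0.12, adjusted p = 0.0464), beside -0.28 (95% interval -0.54 to -0.03, adjusted p = 0.113) in wild type and -0.25 (-0.51 to 0.00, adjusted p = 0.171) in the Ift140 knockout, -0.32 (adjusted p = 0.119) without replicate 3 of the libraries labelled Ift140 knockout flow. The Dync2h1 call was lost without static replicate 2 (adjusted p = 0.118) or 3 (0.154) or flow replicate 1 (0.147) or 3 (0.134), and with no filter (0.0898), the replicate block (0.0584) or no trend (0.0598). The responses were not shown to differ, at 0.03 (-0.33 to 0.39) for Ift140 minus wild type and -0.08 (-0.44 to 0.28) for Dync2h1 minus wild type. No difference in Trpv4 between lines passed; that between the knockouts under flow was -0.25 (adjusted p = 0.127), with 0.0327 without Ift140 knockout flow replicate 2 and 0.332 without replicate 3. Trpm7 (chromosome 2, 126791565 to 126876230, minus strand) passed in no comparison. Its libraries ranged from 85.2 to 129.8 TPM, and its group means from 92.0 ± 5.89 in static Ift140 knockout to 113 ± 16.9 in wild-type flow cells (SD, n = 3). Its flow differences were 0.10 (-0.11 to 0.31), 0.22 (0.01 to 0.44) and 0.13 (-0.08 to 0.34) in wild type, Ift140 and Dync2h1 knockout, that of the Ift140 knockout 0.16 without its replicate 3.

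**Figure D2:**
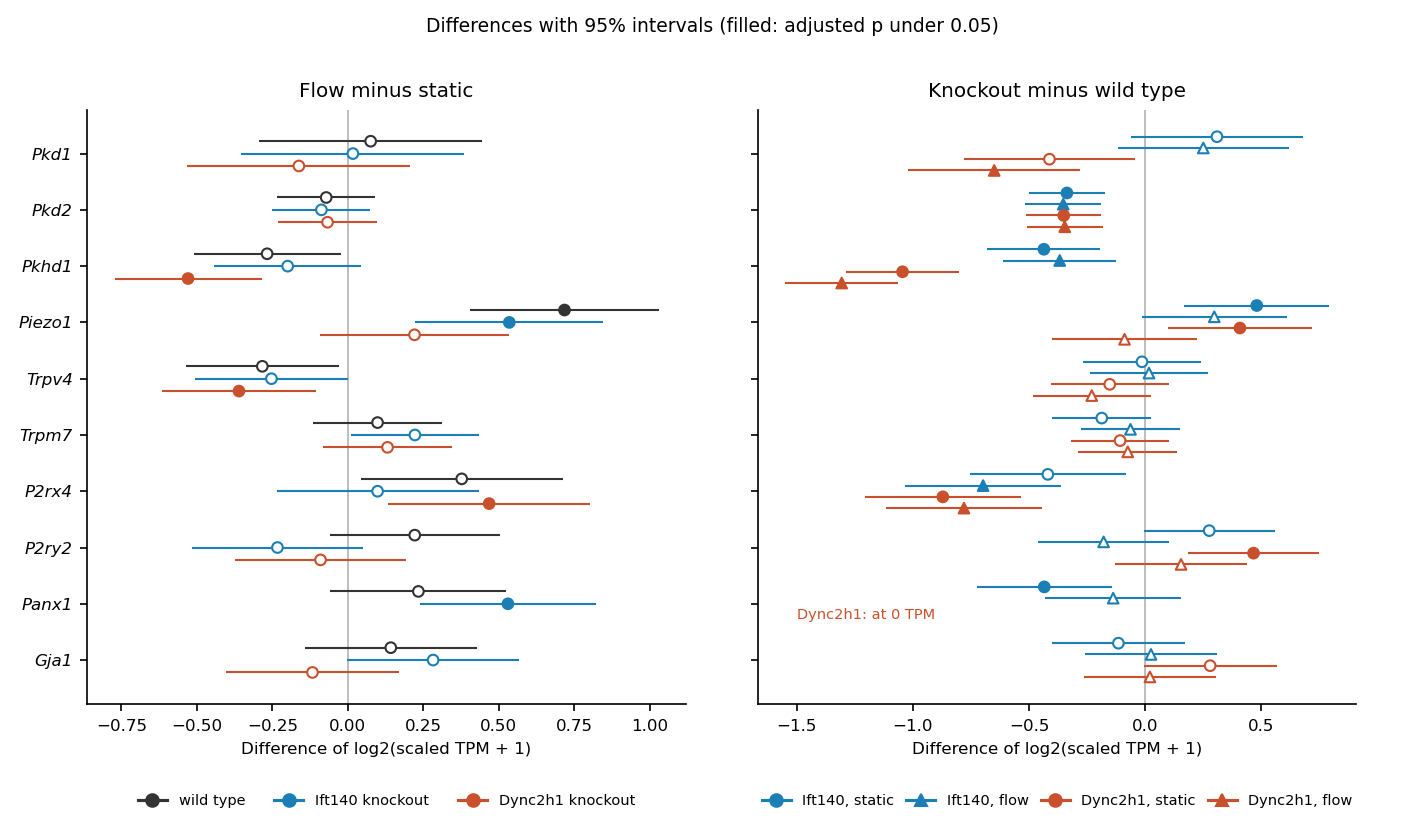
Log2 differences of scaled TPM + 1 (horizontal axes) for the 10 genes with 95% intervals, flow minus static in the 3 lines on the left and knockout minus wild type in static (circles) and flow (triangles) culture on the right; filled symbols have an adjusted p under 0.05, and Panx1 in the Dync2h1 knockout is left out because it was listed at 0. Piezo1 is at 0.72 in wild type on the left, and the Pkd2 differences on the right lie between -0.34 and -0.35.

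Of the ATP receptors, P2rx4 (chromosome 5, 122707544 to 122729738, plus strand) was lower in knockout than in wild-type cells. Wild-type libraries had 29.2, 29.0 and 34.7 TPM static and 43.1, 33.3 and 45.8 under flow. The Ift140 knockout had 18.8, 23.1 and 27.3 static and 28.0, 26.2 and 20.05 under flow, the Dync2h1 knockout 16.8, 14.4 and 18.3 static and 23.4, 25.3 and 20.8 under flow. All 12 knockout libraries lay below all wild-type libraries. In the Dync2h1 knockout P2rx4 was lower than wild type by -0.87 (SE 0.16, adjusted p = 0.000641) static and -0.78 (adjusted p = 0.00144) under flow, both kept under all 16 alternatives. In the Ift140 knockout it was lower by -0.70 (adjusted p = 0.00688) under flow, -0.56 (adjusted p = 0.0306) without replicate 3 of the libraries labelled Ift140 knockout flow. Its adjusted p was 0.0832 when only the compared groups entered the fit. The static Ift140 difference of -0.42 had an adjusted p of 0.0778, which was 0.0429 without Ift140 knockout static replicate 3 and 0.0472 without the flow replicate 3 just named. Between the knockouts the static difference was -0.45 (adjusted p = 0.0497), and leaving out any of 5 of the 6 compared libraries (all but Ift140 knockout static replicate 1) gave 0.0524 to 0.193, and that call passed in 5 of 16 alternatives. Flow raised P2rx4 in the Dync2h1 knockout by 0.47 (adjusted p = 0.049), a call lost without any 1 of its 6 libraries (0.0526 to 0.178) and passed in 4 of 16 alternatives; changes of scaling, filter, pseudocount, block and trend gave 0.0582 to 0.194. In wild type the flow difference was 0.38 (0.04 to 0.71, adjusted p = 0.108; 0.0475 without WT flow replicate 2) and in the Ift140 knockout 0.10 (-0.24 to 0.43), 0.24 (adjusted p = 0.359) without replicate 3 of the libraries labelled Ift140 knockout flow.

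P2ry2 (chromosome 7, 100996568 to 101012866, minus strand) was near the lower limit of what was tested, between 2.08 and 4.08 TPM. Static wild-type libraries had 2.08, 2.16 and 2.76 TPM and static Dync2h1 knockout libraries 3.19, 4.08 and 3.53, with no overlap. The difference of 0.47 (SE 0.13, adjusted p = 0.0153) passed, in the direction opposite to P2rx4. It was lost without WT static replicate 1 (adjusted p = 0.0634) or 2 (0.0574) or Dync2h1 knockout static replicate 2 (0.0759). Under flow the wild-type values were 2.62, 3.08 and 2.92, the Dync2h1 values 3.19, 3.43 and 3.30, and the difference was 0.15 (-0.13 to 0.44). The Ift140 knockout had 2.81, 3.56 and 2.73 static and 2.13, 2.80 and 2.35 under flow, and did not differ from wild type beyond the threshold. Between the knockouts under flow the difference was 0.33 (adjusted p = 0.0655; 0.0408 without Ift140 knockout flow replicate 2, 0.0347 with quantile normalisation, 0.0316 without the trend, and 0.127 without replicate 3 of the libraries labelled Ift140 knockout flow).

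Of the ATP release genes, Panx1 (chromosome 9, 15002128 to 15045478, minus strand) was listed at 0 TPM in all 6 Dync2h1 knockout libraries. Wild-type libraries had 7.23, 7.23 and 5.46 TPM static and 7.51, 7.83 and 8.48 under flow. The Ift140 knockout had 5.17, 4.10 and 4.63 static and 8.51, 6.94 and 6.09 under flow. The files are given to 2 decimals, so a 0 is a value under 0.01 TPM or an estimate that failed, and no fold is given. The difference from wild type had an adjusted p of 4.87e-10 static and 1.88e-10 under flow, and that from the Ift140 knockout 3.77e-09 and 4.96e-10 (the latter 1.98e-09 without replicate 3 of the libraries labelled Ift140 knockout flow). Of 13753 tested genes at 1 TPM or more in all 6 wild-type libraries, 2 were at 0 in all 6 Dync2h1 knockout libraries, Panx1 and Itga9, an integrin gene that lies 103.6 Mb away on the same chromosome. The mean of Itga9 was 1.80 ± 0.591 TPM for static wild type (SD, n = 3). Flow raised Panx1 in the Ift140 knockout by 0.53 (SE 0.14, adjusted p = 0.014), 0.63 (adjusted p = 0.00718) without its flow replicate 3. The call was lost without Ift140 knockout static replicate 2 (0.0616) or flow replicate 1 (0.0629), and when only the compared groups entered the fit (0.157). The shared estimate of spread includes the 6 Dync2h1 knockout libraries, which are all at 0 and add no spread. The SE and p-values given for Panx1 from all libraries may therefore be too small. In wild type the flow libraries also lay above the static ones, with 0.23 (-0.06 to 0.53, adjusted p = 0.266). Static Ift140 knockout cells were lower than wild type by -0.43 (adjusted p = 0.0388), lost without WT static replicate 1 (0.14) or 2 (0.135) or Ift140 knockout static replicate 2 (0.131) or 3 (0.0846). It passed in 6 of 16 alternatives and was also lost with deposited TPM (0.0698), quantile normalisation (0.0572), no filter (0.0768), a filter at 5 TPM (0.0667), a pseudocount of 0.1 (0.1) and only the compared groups in the fit (0.101).

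Panx1 and the targeted gene Dync2h1 (6928503 to 7184446) are on the same chromosome, 7.82 Mb apart. A window of 10 Mb on either side of Panx1 was therefore read, a choice made after the value of Panx1 was seen. The tested protein-coding genes from Dync2h1 to Panx1, with Dync2h1 itself left out, number 18, and in static Dync2h1 knockout cells all 18 had a log2 difference below 0 and 16 passed as lower. Of all tested genes 14.1% passed as lower there. The 18 genes had a median of -0.98, a ratio of 0.506 of TPM + 1, and they ranged from -1.36 to -0.26. Under flow 16 of the 18 were lower with a median of -0.92, where 2334 of 16718 tested genes passed as lower. In the static Ift140 knockout 0 of these 18 passed in limma, with a median of -0.12. On the far side of Panx1, 71 genes within the window had a median of -0.02 in static Dync2h1 knockout cells, where 8 fell and 8 rose. Of the 6 genes in the first 1 Mb beyond Panx1, 2 rose and 1 fell, Slc36a4 (-1.01, adjusted p = 1.4e-05). Of the 3 genes before Dync2h1 in the window, Casp4 and Casp12, which encode inflammatory caspases, were lower too, Casp12 at 15.2 ± 1.78 TPM in wild-type and 0.259 ± 0.163 in Dync2h1 knockout cells (SD, n = 3, static). Pdgfd, the nearest of the 3 to Dync2h1, did not pass (-0.06, adjusted p = 0.832, static). With a single knockout line, a difference tied to the region and one tied to the loss of Dync2h1 cannot be told apart in these values.

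**Figure D3:**
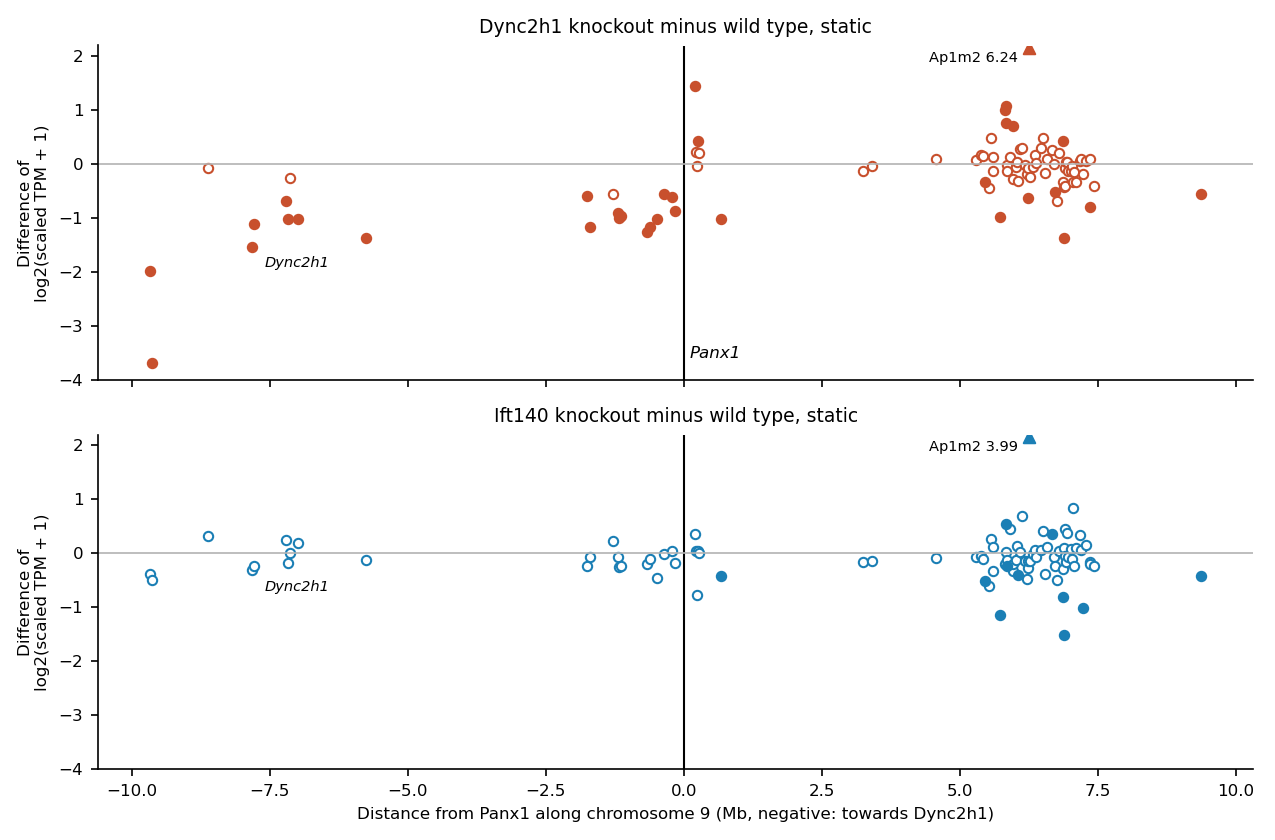
Log2 difference from wild type in static culture (vertical axes; filled when the adjusted p is under 0.05) of the tested protein-coding genes within 10 Mb of Panx1, against distance from Panx1 in Mb, for the Dync2h1 knockout (top) and the Ift140 knockout (bottom); a triangle marks Ap1m2, which lies above the scale (6.24 and 3.99). Between Dync2h1 and Panx1 the points of the Dync2h1 knockout gather around -0.98, and those of the Ift140 knockout around -0.12.

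Gja1 (chromosome 10, 56377330 to 56402513, plus strand) had the lowest mean of the 10, with libraries between 1.43 and 3.07 TPM. Its static libraries were 2.07, 1.88 and 1.70 TPM in wild type, 1.69, 1.86 and 1.43 in the Ift140 and 2.30, 2.17 and 3.07 in the Dync2h1 knockout. Dync2h1 knockout cells were higher than Ift140 knockout cells by 0.40 (SE 0.13, adjusted p = 0.045), with no overlap, and the call was lost without Ift140 knockout static replicate 1 (0.0865), 2 (0.0557) or 3 (0.139) or Dync2h1 knockout static replicate 1 (0.0683) or 3 (0.196). It passed in 6 of 15 alternatives and was also lost with deposited TPM (0.11), no filter (0.0899), the replicate block (0.0678) and only the compared groups in the fit (0.126). Against wild type the Dync2h1 difference was 0.28 (-0.01 to 0.57, adjusted p = 0.141). Flow differences were 0.14 (-0.14 to 0.43) in wild type, 0.28 (-0.00 to 0.57; 0.22 without replicate 3 of the libraries labelled Ift140 knockout flow) in the Ift140 and -0.12 (-0.40 to 0.17) in the Dync2h1 knockout, none of which passed.

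Set against the background in the remaining comparisons, 3 of 10 genes differed between Ift140 knockout and wild type under flow (Pkd2, Pkhd1 and P2rx4, all lower; background 15.3%). Dync2h1 knockout and wild type differed in 5 of 10 under flow (Pkd1, Pkd2, Pkhd1, P2rx4 and Panx1, all lower; background 30.1%). Between the knockouts 5 of 10 differed in static (background 23.0%) and 3 of 10 in flow culture (background 33.0%). These counts carry the same limit from the choice of genes. For the difference between flow responses, 0 of 10 passed in limma in each of the 3 pairs of lines, where 0.227% (Ift140 minus wild type), 0.485% (Dync2h1 minus wild type) and 0.108% (Dync2h1 minus Ift140) of all genes passed. An unadjusted p under 0.05 was reached by 1 gene in each: P2ry2 with -0.45 (adjusted p = 0.543; -0.44 without replicate 3 of the libraries labelled Ift140 knockout flow), Piezo1 as given above, and Panx1 with -0.53 (adjusted p = 0.44; -0.63 without that library), where the Dync2h1 side is 0 in all libraries. The intervals of these differences were wide, for Pkd1 from -0.76 to 0.28 and for Pkd2 from -0.23 to 0.23 in the Dync2h1 minus wild-type pair.

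Related genes were read from lists made for these families, also chosen with earlier results of these data known. Differences between the flow responses of the lines are not given for them. A pass in 1 line and not in another therefore does not show that the lines respond differently. Of 17 further polycystin and cystic disease genes, 14 were tested. Under flow 1 rose, 1 fell and 12 did not pass in each line, so the counts did not exceed the background. That background was 20.5% of all tested genes in wild type, 17.5% in the Ift140 and 19.0% in the Dync2h1 knockout. Flow in wild type raised 1, Pkd2l2 (a polycystin-2 relative, from 7.41 ± 1.93 to 11.2 ± 1.64 TPM, SD, n = 3), and lowered 1, Nek8 (a ciliary kinase, from 22.8 ± 3.64 to 17.3 ± 1.91 TPM). Among Ift140 knockout libraries Pkd2l2 rose (0.97, adjusted p = 0.000716) and Nek8 fell (-0.43, adjusted p = 0.015), and in the Dync2h1 knockout Pkd2l2 rose (0.66, adjusted p = 0.00975) while Umod fell, from 1.54 ± 0.559 to 0.514 ± 0.545 TPM (adjusted p = 0.0341). Umod averaged under 1 TPM in those flow libraries, so the filter favoured its fall. The median of the list was 0.01 in wild type, beside -0.01 over all tested genes. Static Dync2h1 knockout cells were lower in 4 of 14 and higher in 0 in limma, where 14.1% of all tested genes passed as lower. The 4 were Dzip1l (30.8 ± 1.31 against 42.4 ± 2.03 TPM), a ciliary transition zone gene of recessive polycystic disease, Dnajb11 (144 ± 8.99 against 185 ± 11.1), an endoplasmic reticulum chaperone gene, Nek8 (17.5 ± 1.203 against 22.8 ± 3.64) and Bicc1 (104 ± 5.32 against 142 ± 4.26), which encodes an RNA-binding protein.

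Of 25 further mechanosensitive and TRP channels, 13 were tested; under flow 2 rose in wild type, 1 rose and 2 fell in the Ift140 knockout, and 2 rose in the Dync2h1 knockout, near the 20.5%, 17.5% and 19.0% of all tested genes that passed. Lrrc8a, the essential subunit of the volume-regulated anion channel, rose under flow in every line, from 7.48 ± 1.13 to 15.6 ± 2.27 TPM in wild type (0.97, adjusted p = 0.0003), by 0.90 (adjusted p = 0.000707) in the Ift140 and by 0.75 (adjusted p = 0.00262) in the Dync2h1 knockout. Trpm6, the closest relative of Trpm7 and a magnesium channel, rose in wild type from 61.9 ± 2.57 to 85.3 ± 8.34 TPM (adjusted p = 0.00362) and in the Dync2h1 knockout from 39.5 ± 4.15 to 51.0 ± 3.86 (adjusted p = 0.0159). In the Ift140 knockout Trpm6 stood at 43.3 ± 2.43 static and 41.5 ± 4.26 under flow (adjusted p = 0.724). In static culture Trpm6 was lower than in wild type by -0.51 (adjusted p = 0.00191) in the Ift140 and by -0.64 (adjusted p = 0.000144) in the Dync2h1 knockout. Piezo2, the relative of Piezo1, had a mean of 50.0 ± 0.281 TPM for static wild type and 33.8 ± 1.95 for the static Ift140 knockout (-0.55, adjusted p = 0.0446), a direction opposite to that of Piezo1. Trpc1, a store-linked cation channel, fell under flow in the Ift140 knockout (-0.58, adjusted p = 0.0129) and was higher than wild type in the static Dync2h1 knockout (0.55, adjusted p = 0.0114).

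Of 17 further ATP and adenosine receptors only 4 were tested, the others not reaching 1 TPM in 3 libraries. Adora1, the A1 adenosine receptor, rose in wild type under flow from 4.88 ± 0.439 to 8.35 ± 0.288 TPM (0.67, adjusted p = 0.00313), beside 0.29 (adjusted p = 0.192) and 0.27 (adjusted p = 0.204) in the Ift140 and Dync2h1 knockouts. The sign was the same in all 3 lines, and a difference between their responses was not shown. P2rx5 was lower in static Dync2h1 knockout cells, at 0.715 ± 0.465 against 2.82 ± 0.458 TPM (adjusted p = 0.00507). Its mean there was under 1 TPM, so it met the filter through libraries where it was higher. The filter thus favoured this direction. Of 16 genes of ATP release and nucleotide breakdown, 10 were tested. Against static wild type, 1 was higher and 3 lower in the Ift140 knockout (background 18.1%). In the Dync2h1 knockout 1 was higher and 2 lower (background 27.6%). Entpd2 was lower in the Ift140 knockout (8.08 ± 0.664 against 17.8 ± 2.68 TPM, adjusted p = 0.0022). Entpd3 was higher in the Dync2h1 knockout (2.33 ± 0.414 against 0.756 ± 0.288 TPM, adjusted p = 0.00882), with a wild-type mean under 1 TPM. Slc29a1, the equilibrative nucleoside transporter, rose under flow in wild type (32.5 ± 2.88 to 52.2 ± 2.63 TPM, adjusted p = 0.000787) and in the Ift140 knockout (51.7 ± 3.80 to 74.5 ± 4.38, adjusted p = 0.00638), and was 32.7 ± 6.30 and 34.9 ± 4.04 in the Dync2h1 knockout (adjusted p = 0.614). Nt5e, the ecto-enzyme that makes adenosine, was lower than wild type in both static knockouts (3.17 ± 0.340 TPM against 1.18 ± 0.208 in Ift140 and 0.818 ± 0.305 in Dync2h1). Enpp1, which splits ATP to pyrophosphate, was lower in both as well, at 0.251 ± 0.236 and 0.0424 ± 0.0197 against 1.65 ± 0.830 TPM. Enpp1 in both knockouts and Nt5e in the Dync2h1 knockout averaged under 1 TPM, so the filter favoured these lower calls too.

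Of 17 connexins listed beside Gja1, 2 were tested, and both rose in wild type under flow, where 1702 of 16718 tested genes passed as higher. Gjb2 went from 0.479 ± 0.337 to 2.62 ± 0.104 TPM (adjusted p = 2.52e-05) and Gjc1 from 16.0 ± 0.731 to 22.7 ± 2.50 (adjusted p = 0.014). Gjb2 averaged under 1 TPM in static wild type, so it reached the filter through libraries where it was high. The filter thus favoured its rise, and the count is not read as a result about connexins. Gjc1 also rose in the Dync2h1 knockout, from 16.1 ± 1.57 to 22.5 ± 2.17 TPM (adjusted p = 0.0182), and was 17.3 ± 2.36 static and 20.1 ± 3.11 under flow in the Ift140 knockout (adjusted p = 0.312). In static culture Gjb2 averaged under 1 TPM in both the Ift140 knockout (0.0126 ± 0.00447 TPM) and wild type (0.479 ± 0.337). That difference passed in limma (adjusted p = 0.0305) but is not read as a result, since Gjb2 met the filter through other libraries. Of 30 calcium and cyclic AMP effectors, 27 were tested. Under flow 2 rose and 2 fell in wild type, 2 rose and 2 fell in the Ift140 knockout, and 4 rose and 4 fell in the Dync2h1 knockout. Of all tested genes 20.5%, 17.5% and 19.0% passed in these comparisons. Pde4c, a phosphodiesterase, and Adcy9, an adenylyl cyclase, fell under flow in all 3 lines, Pde4c from 13.96 ± 1.13 to 8.76 ± 0.350 TPM in wild type, 9.90 ± 0.915 to 5.08 ± 0.390 in the Ift140 and 6.50 ± 0.763 to 3.52 ± 0.811 in the Dync2h1 knockout. Pde4c was also lower in both static knockouts (adjusted p = 0.024 for Ift140 and 3.77e-05 for Dync2h1). Orai1, the store-operated calcium channel, rose in wild type from 15.3 ± 1.22 to 28.4 ± 3.62 TPM (adjusted p = 0.00483). Its flow differences in the knockouts are not given here, so the rise is not read as particular to wild type. Static Dync2h1 knockout cells had 9 of 27 effectors lower and 2 higher, where 27.6% of all tested genes passed and 14.1% as lower; Itpr1, an inositol trisphosphate receptor, stood at 24.0 ± 0.222 against 50.3 ± 3.40 TPM (adjusted p = 8.75e-06), while its relative Itpr2 was higher (48.3 ± 2.82 against 26.4 ± 5.29, adjusted p = 0.000169). The median of that list was -0.12 there, beside -0.01 over all tested genes.

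**Figure D4:**
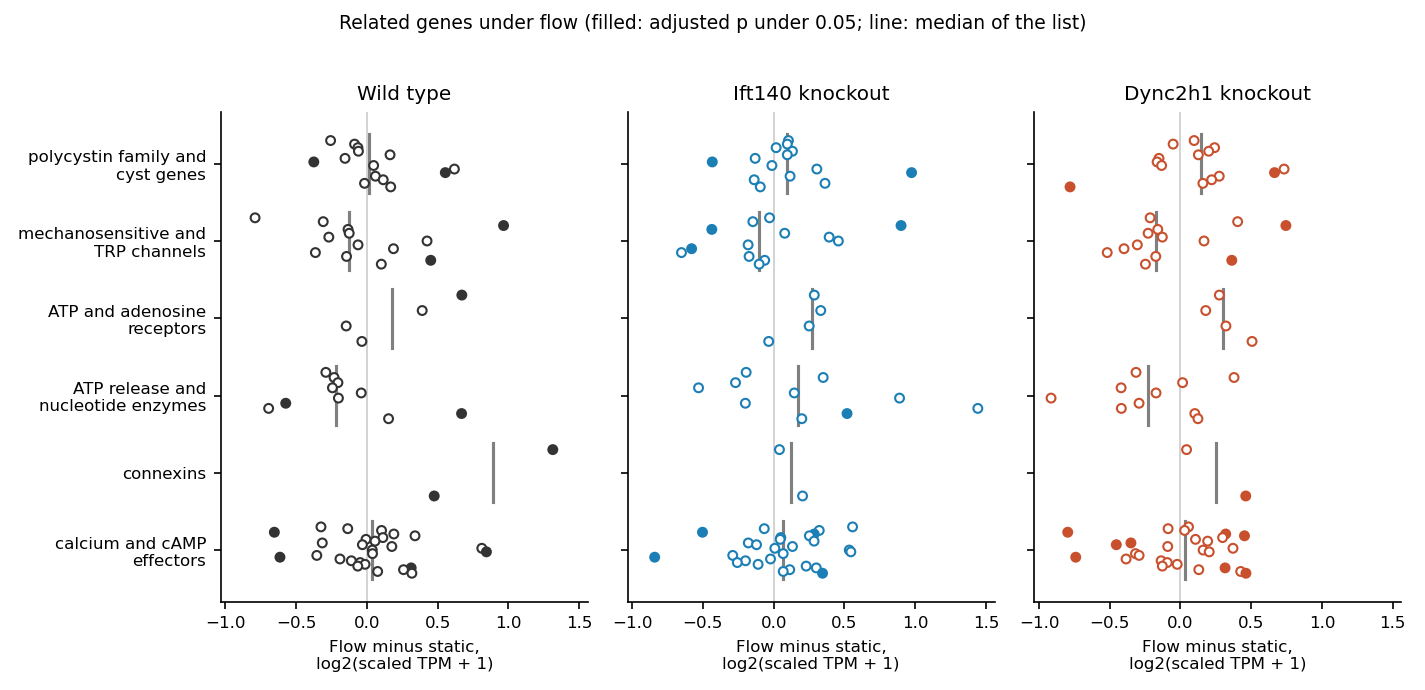
Log2 difference of scaled TPM + 1 between flow and static culture (horizontal axes) for the tested genes of the 6 related lists in the 3 lines; each point is a gene, filled when its adjusted p is under 0.05, and the line gives the list's median. Both connexins are filled in wild type, with a median of 0.89, and 1 of them, Gjb2, averaged under 1 TPM in static wild type.

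For the 7 members with a mean of at least 5 TPM, the gene with the most similar profile among 9886 genes was named by Pearson's r of log2(scaled TPM + 1) over the 18 libraries, which share lines and treatments. These were Trio for Piezo1 (r = 0.97), C1galt1 for Pkhd1 (0.96), Setd5 for Pkd1 (0.94), Arsa for Pkd2 (0.94), Tsc22d4 for Trpv4 (0.90), Arpc1a for P2rx4 (0.89) and Ranbp2 for Trpm7 (0.81). Trio had means of 156 and 259 TPM for wild type (static and flow), 218 and 375 in the Ift140 and 194 and 253 in the Dync2h1 knockout, with the Ift140 knockout flow libraries again the most spread (SD 119). C1galt1 had 49.1 and 38.4 TPM in wild type, 35.9 and 27.3 in the Ift140 and 19.9 and 15.0 in the Dync2h1 knockout, the same order of group means as Pkhd1. These genes were picked by their correlation in the same libraries, so such likeness follows from the choice and is no separate result.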

How the data were processed

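RNA sequencing values of 18 libraries (6 groups of 3) were used. Per the submitters' processing notes, the authors used RSEM 1.2.31, Bowtie2 2.1.0 and FastQC 0.11.5, and the builds named are GRCm38.p5 and mm10; settings, annotation release and strand are not given in the sources used here. The deposited values were read as TPM, since the gene rows of each library sum to the same total; a leading row repeating that total was dropped. No other transformation by the authors is recorded.

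Libraries were scaled by trimmed means of log ratios (30% of ratios and 5% of abundances trimmed; factors 0.890 to 1.13). Genes with at least 1 TPM in 3 libraries were kept. limma 3.58.1 in R 4.3.3 was fitted on log2(scaled TPM + 1) with 6 group means, all 18 libraries, 12 residual degrees of freedom and a mean-variance trend, and p-values were adjusted by Benjamini-Hochberg over 16718 genes. The scripts were tested on simulated data. An exact rank test of 3 against 3 cannot go below p = 0.1, so smaller p-values rest on the model.

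The 10 genes and the lists were chosen with earlier results of these data known. All 10 are named in every comparison; of each list, up to 4 members that passed, by smallest p, in the flow and static comparisons, and the most abundant; and for genes above 5 TPM the most similar profile. Genes near Panx1, Ctu2, Tsc2 and Itga9 were named after their values were seen. Some members of the related lists are not reported here, and the counts and medians of those lists are without them. Coordinates are from GENCODE vM21 (GRCm38), and promoters from RefSeq (GRCm38.p6; all 10 matched). Alternatives changed the scaling, filter, pseudocount, libraries fitted, trend and replicate block, or left out single libraries.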

Additional observations from a re-analysis of the deposited data

How the results depend on the processing

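Of 2026 values of single genes under the alternatives, 1913 kept their side of the threshold, 95 lost it, 18 gained it and 0 of the called ones changed sign. The number of the 10 genes that passed changed as follows, and the cause was not tested. With deposited TPM not scaled further it was 1 instead of 2 for flow in the Ift140 knockout and 0 instead of 4 for the static Ift140 knockout against wild type. Quantile normalisation gave 1 for the former and 5 instead of 3 between the knockouts under flow. With no filter on low values it was 1 instead of 3 for flow in the Dync2h1 knockout, 2 for the static Ift140 knockout against wild type and 3 instead of 5 between the static knockouts. Fitting only the groups compared gave 0 for flow in the Ift140 knockout, 0 instead of 3 for Ift140 knockout against wild type under flow and 3 between the static knockouts. Without the trend, flow in the Dync2h1 knockout gave 1. Leaving out single libraries gave 1 to 2 for flow in wild type, 1 to 2 in the Ift140 and 1 to 3 in the Dync2h1 knockout, 1 to 5 and 4 to 7 for the static Ift140 and Dync2h1 knockouts against wild type, 2 to 3 and 5 to 5 under flow, 3 to 5 and 3 to 6 between the knockouts static and under flow, and 0 to 1 for the Dync2h1 minus wild-type response (1 only without replicate 3 of the libraries labelled Ift140 knockout flow, an alternative added after seeing the data) and 0 to 0 for both other differences of responses.

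Replicate numbers showed no clear pairing of the samples: correlations of same-numbered deviations lay between -0.18 and 0.14. With 3 libraries per group these correlations cannot decide whether cultures or batches were shared. With the replicate number as a block, 1 of 10 passed for flow in the Dync2h1 knockout instead of 3 and 3 instead of 5 between the static knockouts; other counts stayed within 1.5 times.

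Over all genes, fitting only the groups compared left 604 instead of 2922 genes for flow in the Ift140 knockout, 616 instead of 2550 for Ift140 knockout against wild type under flow and 2843 instead of 5514 between the knockouts under flow. Scaling moved the median of all genes by up to 0.128 (log2, knockouts under flow), and the share of higher calls there ranged from 31.7% to 53.5%.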
